A study of Homo sapiens with 21 samples.

Results

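8:2 FTS, a fluorotelomer sulfonic acid of the per- and polyfluoroalkyl substances (PFAS), was compared with control in SH-SY5Y cells, a human neuroblastoma line, taken to a neuron-like state over 11 days. The libraries were chosen by their names in the deposited table of raw counts, 3 of 8:2 FTS and 3 of Control, which makes 6 of the 21 libraries in the series. The 8:2 FTS cells had 30 µM of the compound for 24 h in a solution with 1% methanol at the end. The controls had the same differentiation, and the methanol they received is not stated in the sources used here. Changes with the compound and with the methanol therefore cannot be told apart in the comparison with Control. 8:2 FTOH, PFDS, PFOS, PFDA and PFOA were given at the same dose and time, with 3 libraries each, and the first 3 of these are compared with 8:2 FTS below. SH-SY5Y is a single tumour line, and nothing says that the 3 libraries of a group came from separate cultures, so the p-values speak only to variation among these libraries, which may be technical. Of 62656 genes in the table, 24879 passed the filter on low counts and were tested.

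Background is given for 3 programmes whose lists hold 9 of the 21 genes that passed. Cholesterol synthesis is run by the transcription factor SREBP-2 (gene SREBF2), which its escort SCAP carries out of the endoplasmic reticulum when sterols are scarce. INSIG1 holds SCAP back when sterols are plentiful, and its own gene is a target of the same factor, as are the genes of nearly every step of the synthesis. The integrated stress response slows translation and raises ATF4, a factor that drives genes for amino acid uptake, serine synthesis and tRNA charging. EGR1 and FOS encode immediate early transcription factors, switched on within minutes by the ERK kinases or by neuronal activity, with PLK2, a polo-like kinase of neurons, in the same fast class.

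With 8:2 FTS, EGR1, FOS and PLK2 fell, sterol genes including SQLE, SC5D, MSMO1 and INSIG1 fell, and the amino acid transporter genes SLC7A11 and SLC7A5 rose. In all, 21 genes passed an adjusted p of 0.05 in edgeR's quasi-likelihood test with Benjamini-Hochberg adjustment over all tested genes, 0.0844% of them. Of these, 3 were higher with 8:2 FTS (0.0121%) and 18 were lower (0.0724%). The median log2 fold change of all tested genes was 0.01, and 48.39% of them had a negative estimate. At an unadjusted p under 0.05 there were 1932 genes. In every one of the 21 genes the 3 libraries of 8:2 FTS did not overlap the 3 of Control. These genes were called from the same libraries, so their separation follows largely from the call and tests nothing. Over all tested genes the separation was found for 6.64% in the higher direction and 7.17% in the lower one.

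Control replicate 3 stood apart and touches what follows. Its counts differed from those of the other control libraries by a chi-square of about 38.8 per gene, against 9.22 between control replicates 1 and 2 and 4.16 to 6.93 within 8:2 FTS. Mitochondrial genes took 3.77% to 4.18% of counts with 8:2 FTS and 4.13% to 6.33% in Control, where the highest value was replicate 3. Totals were 11877912 to 20876392 counts with 8:2 FTS and 22179910 to 24905803 in Control, so depth was lower with 8:2 FTS in every library. With all libraries thinned to the smallest total, 17 genes passed and 14 of the 21 were among them. Without control replicate 3, 41 genes passed, of which 20 were higher (0.078% of the genes then tested) and 21 lower (0.0819%), and 15 of the 21 were among them. The count also moved when any other library of the comparison was left out, to 4 without control replicate 2 or 8:2 FTS replicate 1, to 6 without control replicate 1 or 8:2 FTS replicate 2, and to 13 without 8:2 FTS replicate 3. In the 6 fits made on 1 library fewer, EGR1 and FOS passed in all 6, SLC7A11 in 5, U3 in 4 and SQLE in 3. PLK2, DKK2, SLC7A5, TMEM97, ERG28 and ENSG00000290960 passed in 2 of the 6, and the other 10 genes in 1 or 0.

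Marker genes of the neuronal label were looked up. The series holds no undifferentiated cells, so their presence cannot show how far the cells had differentiated. STMN2, MAP2, ELAVL4, NEFM, GAP43, SYP, SNAP25 and TUBB3 were all present, and their summed level was 3140 to 3410 CPM (read counts scaled to a common library size after TMM normalization) with 8:2 FTS and 3590 to 3870 CPM in Control. The noradrenergic factors PHOX2A, HAND2 and GATA3 and the enzyme gene DBH were present, while TH, which encodes the first enzyme of catecholamine synthesis, was at 0.956 ± 0.561 CPM with 8:2 FTS and 0.592 ± 0.145 CPM in Control (SD, n = 3 each). The cells still expressed the proliferation genes MKI67, TOP2A, CCNB1 and CDK1, summing to 1310 to 1480 CPM with 8:2 FTS and 1550 to 1660 CPM in Control. The 10 mesenchymal markers summed to 140 to 158 CPM with 8:2 FTS and 163 to 169 CPM in Control, with PRRX1 at 0 in all 3 control libraries. The 9 Schwann or glial markers summed to 12.6 to 17.1 CPM and 12.5 to 14.8 CPM in the same order, and CDH19 and FOXD3 had no read in any of the 6. None of the tested markers passed, and PRRX1, CDH19 and FOXD3 were too low to test. Fewer cells of a type and less RNA per cell cannot be told apart in such bulk libraries, and the part of the lower neuronal, cycling and mesenchymal sums in the results below was not tested.

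Promoters of 5 fallen genes tied to sterols and of EGR1 are shown because each holds letters that a factor of its programme is known to use, and they were picked for that. The promoter of SQLE is not shown. Each run is the 250 bases before the RefSeq start site on GRCh38.p14, from 5′ to 3′ on the gene's strand. Capitals mark the CCAAT box (CCAAT, or ATTGG on the other strand), the site of NF-Y, a partner of SREBP-2, in the first 5 and the CArG box, the site of serum response factor, in EGR1. The windows are chr7:155297628-155297877 (plus strand) for INSIG1, chr4:165327419-165327668 (plus strand) for MSMO1, chr11:121292521-121292770 (plus strand) for SC5D, chr17:28318950-28319199 (plus strand) for TMEM97, chr14:75660877-75661126 (minus strand) for ERG28 and chr5:138465229-138465478 (plus strand) for EGR1.
INSIG1: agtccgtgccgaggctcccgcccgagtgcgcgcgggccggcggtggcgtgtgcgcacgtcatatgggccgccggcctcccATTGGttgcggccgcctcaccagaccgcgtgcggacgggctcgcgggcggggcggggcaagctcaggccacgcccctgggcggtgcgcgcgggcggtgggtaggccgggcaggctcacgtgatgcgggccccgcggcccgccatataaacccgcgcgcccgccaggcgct
MSMO1: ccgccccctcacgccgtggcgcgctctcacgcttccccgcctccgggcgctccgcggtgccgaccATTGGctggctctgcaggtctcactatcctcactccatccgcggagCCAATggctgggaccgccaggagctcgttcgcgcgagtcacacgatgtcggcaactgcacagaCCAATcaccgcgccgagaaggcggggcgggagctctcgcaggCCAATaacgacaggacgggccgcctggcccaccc
SC5D: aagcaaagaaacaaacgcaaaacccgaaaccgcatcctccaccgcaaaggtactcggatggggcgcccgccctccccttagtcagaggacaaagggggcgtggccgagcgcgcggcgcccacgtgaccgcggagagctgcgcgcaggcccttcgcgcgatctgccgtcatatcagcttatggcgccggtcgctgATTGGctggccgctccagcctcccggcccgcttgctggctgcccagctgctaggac
TMEM97: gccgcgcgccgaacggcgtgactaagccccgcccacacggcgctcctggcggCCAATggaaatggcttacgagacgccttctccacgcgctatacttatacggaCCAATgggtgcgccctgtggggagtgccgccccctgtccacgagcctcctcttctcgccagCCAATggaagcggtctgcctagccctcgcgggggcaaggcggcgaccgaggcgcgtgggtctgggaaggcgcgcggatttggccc
ERG28: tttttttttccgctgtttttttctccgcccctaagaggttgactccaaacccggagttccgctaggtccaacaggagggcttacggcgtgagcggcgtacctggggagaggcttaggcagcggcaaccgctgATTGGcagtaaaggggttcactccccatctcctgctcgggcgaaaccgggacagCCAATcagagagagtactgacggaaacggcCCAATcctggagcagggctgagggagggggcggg
EGR1: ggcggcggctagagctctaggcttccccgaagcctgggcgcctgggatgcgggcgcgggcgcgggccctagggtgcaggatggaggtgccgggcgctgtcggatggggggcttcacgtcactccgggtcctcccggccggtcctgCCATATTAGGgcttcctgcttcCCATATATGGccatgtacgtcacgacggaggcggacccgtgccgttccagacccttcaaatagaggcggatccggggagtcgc
Over windows that also take in 50 bases after the start, 12 of the 21 called genes had an entry in the set of promoters searched. SQLE and SLC7A11 were not among these 12. A CCAAT box on either strand was found in 34.61% of 35116 promoters. It was in 7 of the 12 called genes (58.3%), or 8 of their 14 windows (57.1%). In the cholesterol list it was in at least 1 window of 17 of the 21 cholesterol genes with an entry (81.0%), or 19 of their 27 windows (70.4%). MSMO1 had 4 matches, TMEM97 and ERG28 had 3 each, and INSIG1 and SC5D had 1 each in the window shown. The sterol regulatory element core, searched as TCACNCCAC on both strands, was in 1.13% of all promoters and in 1 of the 21 cholesterol genes, SREBF2, and in 0 of the 12 called genes. A CArG box was in 1.29% of all promoters. It occurred in EGR1 at 105 and again at 83 bases before the start, the only gene of the 12 with a match in the window. FOS, also among the 12, had no match there, and bases further out were not searched. The ATF4 composite element, searched as TGATGNAA on both strands, was in 3.62% of all promoters and in 0 of the 12 called genes. SLC7A5 is among these 12, while the promoter of SLC7A11 was not searched. The element was in 8 of the 44 windows of the integrated stress response list (18.2%), 1 each in 8 of its 28 genes with an entry (28.6%): ASNS, CEBPG, CHAC1, JDP2, SLC1A4, SLC1A5, SLC3A2 and SLC7A1. These matches describe letters in the window and not bound sites. Other forms of an element and bases outside the window were not searched, so 0 matches do not show that a gene lacks it.

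Cholesterol synthesis was the gene list with the lowest median of the 40 examined. Of its 29 genes, 2 were too low to test. Among the other 27, 4 fell past the threshold, 26 had a negative estimate and 20 had all 8:2 FTS libraries below all Control libraries. Over all tested genes, 0.0724% fell past the threshold, 48.39% had a negative estimate and 7.17% were separated in that direction. The median log2 fold change of the 27 was -0.33, and -0.36 without control replicate 3, when SQLE, SC5D and ACAT2 were the genes called. The median deviation from the control mean was -0.34, -0.31 and -0.36 in the 8:2 FTS libraries, against 0.01, 0.02 and -0.07 in the Control libraries, so the groups did not overlap. Scaled by library size only, the list's median was -0.28 and that of all genes 0.06.

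The regulators of the pathway did not move alike. INSIG1 (chr7:155297776-155310235, plus strand) had 121, 121 and 115 CPM with 8:2 FTS, against 152, 164 and 166 CPM in Control. It fell by 0.43 on the log2 scale (SE 0.09, edgeR adjusted p = 0.0343), and passed in 0 of the 6 fits made on 1 library fewer (adjusted p = 0.0848 without control replicate 3). SREBF2 was at 257 ± 2.42 CPM with 8:2 FTS and 263 ± 3.91 CPM in Control (SD, n = 3 each), a log2 difference of -0.03 with a 95% interval of -0.21 to 0.14. SCAP was the 1 gene with a positive estimate, 0.17 (interval 0.00 to 0.33, edgeR adjusted p = 0.641).

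The steps of the mevalonate pathway, which builds the isoprenoid units, had negative estimates without a call. HMGCS1, the cytosolic synthase of the pathway, averaged 505 ± 70.5 CPM with 8:2 FTS and 736 ± 10.0 CPM in Control, with a log2 change of -0.54 (edgeR adjusted p = 0.277). IDI1 was at 82.1 ± 4.18 CPM and 105 ± 0.313 CPM in the same order (edgeR adjusted p = 0.11), and an antisense gene covers 15% of its exons, which leaves its count uncertain because reads were counted without regard to strand.

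Squalene is then made by FDFT1 and oxidised by SQLE, the second control point of the pathway. SQLE (chr8:124998497-125022283, plus strand) had 178, 180 and 192 CPM with 8:2 FTS, against 231, 250 and 236 CPM in Control. The lowest control library lay well above the highest 8:2 FTS library. SQLE fell by 0.38 (SE 0.07, edgeR adjusted p = 0.016), and passed in 3 of the 6 fits made on 1 library fewer. FDFT1 had 229, 238 and 215 CPM with 8:2 FTS, against 292, 288 and 294 CPM in Control, with a log2 change of -0.36 (edgeR adjusted p = 0.0809).

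Among the enzymes that turn lanosterol into cholesterol, MSMO1 and SC5D fell. MSMO1 (chr4:165327667-165343164, plus strand), the sterol C4-methyl oxidase, had 163, 146 and 142 CPM with 8:2 FTS, against 205, 215 and 218 CPM in Control. It fell by 0.50 (SE 0.10, edgeR adjusted p = 0.0251), and passed in 0 of the 6 fits made on 1 library fewer (adjusted p = 0.0792 without control replicate 3). SC5D (chr11:121292681-121313410, plus strand), which introduces a double bond late in the pathway, had 100, 99.6 and 96.2 CPM with 8:2 FTS, against 130, 125 and 133 CPM in Control. It fell by 0.39 (SE 0.08, edgeR adjusted p = 0.0169) and passed in 1 of the 6. NSDHL, which acts in the same demethylation as MSMO1, was at 31.7 ± 1.98 CPM with 8:2 FTS and 43.8 ± 3.00 CPM in Control (edgeR adjusted p = 0.0928).

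**Figure D1:**
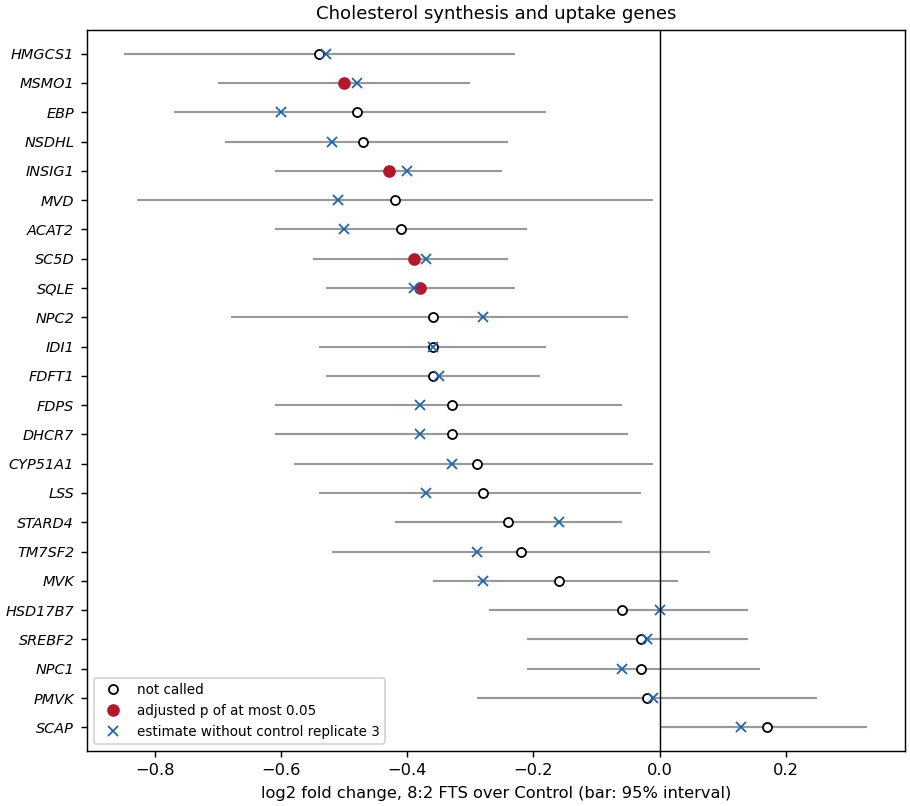
Log2 fold change of 24 cholesterol synthesis and uptake genes, 8:2 FTS over Control, with 95% intervals from the fit over 21 libraries; filled points passed an adjusted p of 0.05 and crosses give the estimate without control replicate 3. The points of 23 genes lie below 0, SCAP lies above it, and the 4 called genes are SQLE, SC5D, MSMO1 and INSIG1.

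A further pair of fallen genes outside that list also have ties to sterols. ERG28 (chr14:75649791-75660876, minus strand), known in yeast as the scaffold of the sterol C4-demethylation enzymes, had 25.1, 24.7 and 31.6 CPM with 8:2 FTS, against 40.7, 40.1 and 36.2 CPM in Control, and fell by 0.53 (SE 0.11, edgeR adjusted p = 0.0192). TMEM97 (chr17:28319200-28328685, plus strand), the sigma-2 receptor that binds the cholesterol transporter NPC1, had 102, 93.5 and 104 CPM with 8:2 FTS, against 149, 137 and 129 CPM in Control. It fell by 0.46 (SE 0.09, edgeR adjusted p = 0.016), and IFT20 on the other strand covers 12.3% of its exons. Each passed in 2 of the 6 fits made on 1 library fewer, with adjusted p up to 0.298 for ERG28 and 0.209 for TMEM97. Neighbouring lipid lists showed less: fatty acid synthesis had 0 of 29 genes called and a median of -0.08, cholesterol efflux had 0 of 12 called and a median of 0.04, and PPAR targets and fatty acid oxidation, a programme that PFAS are known to induce in rodent liver, had 0 of 31 called with 16 estimates positive, 15 negative and a median of 0.01. SCD, the desaturase gene and a target of LXR, was at 1230 ± 46.8 CPM with 8:2 FTS and 1430 ± 72.4 CPM in Control (edgeR adjusted p = 0.54).

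The immediate early genes gave the strongest calls, in EGR1 and FOS. EGR1 (chr5:138465479-138469303, plus strand), a zinc finger factor, had 14.3, 14.2 and 15.3 CPM with 8:2 FTS, against 45.7, 33 and 28.7 CPM in Control. The 8:2 FTS libraries lay close together and the control libraries were spread. EGR1 fell by 1.3 (SE 0.15, edgeR adjusted p = 3.29e-06). FOS (chr14:75278826-75282230, plus strand), a subunit of AP-1, had 1.25, 1.54 and 1.88 CPM with 8:2 FTS, against 8.57, 7.08 and 6.85 CPM in Control, and fell by 2.29 (SE 0.29, edgeR adjusted p = 9.53e-06). Both passed in all 6 fits made on 1 library fewer and in each other setting tried.

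The rest of the list did not follow as a block. Of 26 tested immediate early factors 18 had a negative estimate, the 2 above fell, none rose, and the median was -0.17. Over all tested genes 48.39% had a negative estimate, 0.0724% were called lower and 0.0121% higher. KLF6 was at 31.3 ± 3.19 CPM with 8:2 FTS and 40.8 ± 2.31 CPM in Control (edgeR adjusted p = 0.162). FOSB was at 0.554 ± 0.335 CPM and 1.28 ± 0.382 CPM in the same order (edgeR adjusted p = 0.556). NR4A1, an orphan nuclear receptor of the same fast class, had a positive estimate of 0.39 (interval 0.08 to 0.69, edgeR adjusted p = 0.487). Among 24 tested genes of ERK feedback, PLK2 fell and no other gene passed. Their median was -0.02, with 17 negative estimates, to be read beside the same shares over all genes. PLK2 (chr5:58453982-58460139, minus strand) had 30.3, 30.3 and 26.6 CPM with 8:2 FTS, against 45, 48.6 and 41 CPM in Control, and fell by 0.62 (SE 0.11, edgeR adjusted p = 0.00832). The ERK inhibitor gene SPRY4 was at 66.6 ± 5.00 CPM with 8:2 FTS and 78.1 ± 12.1 CPM in Control (edgeR adjusted p = 0.502).

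**Figure D2:**
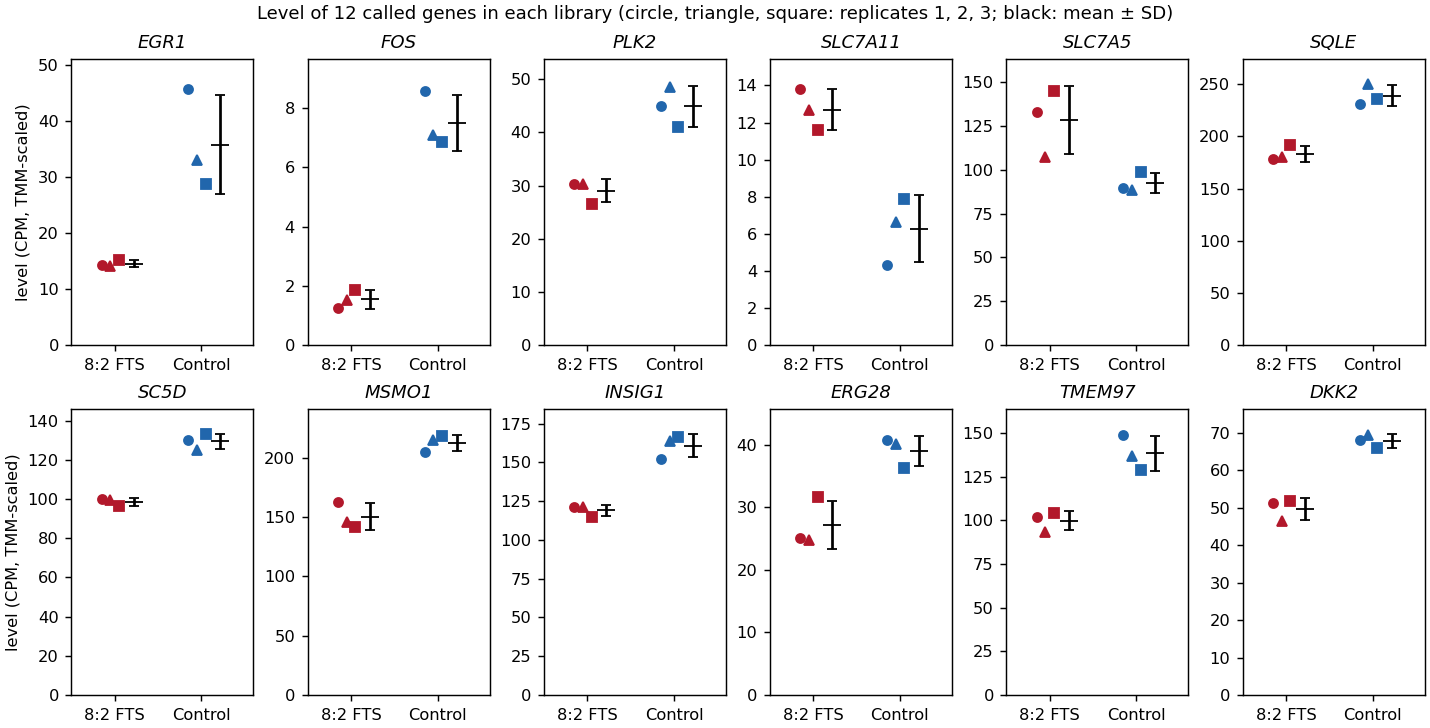
Level in CPM of 12 of the 21 called genes in each library, 8:2 FTS left of Control, with the mean and SD beside the points. The groups, from which these genes were called, do not overlap in any of the 12. FOS was at 1.25 to 1.88 CPM with 8:2 FTS and 6.85 to 8.57 CPM in Control. SLC7A11 was at 11.6 to 13.8 CPM and 4.31 to 7.90 CPM in the same order.

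In the other direction, the integrated stress response had the highest median of the 40 lists, 0.22. Of its 33 tested genes, 2 were called higher, 30 had a positive estimate and 11 had all 8:2 FTS libraries above Control. Over all tested genes, 0.0121% were called higher, 12840 of 24879 had a positive estimate and 6.64% were separated in that direction. SLC7A11 (chr4:138164097-138242349, minus strand), the cystine and glutamate exchanger that feeds glutathione synthesis, had 13.8, 12.7 and 11.6 CPM with 8:2 FTS, against 4.31, 6.66 and 7.90 CPM in Control. It rose by 1.02 (SE 0.16, edgeR adjusted p = 0.00143), and lost its call without control replicate 1 (adjusted p = 0.0506). SLC7A5 (chr16:87830023-87869507, minus strand), the transporter of large neutral amino acids, had 133, 107 and 145 CPM with 8:2 FTS, against 89.4, 88.6 and 98.9 CPM in Control, and rose by 0.48 (SE 0.09, edgeR adjusted p = 0.016). SLC7A5 lost its call in 4 of the 6 fits made on 1 library fewer, with adjusted p up to 0.144. Each has an antisense gene over a small share of its exons, 9.0% for SLC7A11 and 5.7% for SLC7A5. SLC3A2, the heavy chain that pairs with both, was at 72.5 ± 1.54 CPM with 8:2 FTS and 63.4 ± 1.80 CPM in Control (edgeR adjusted p = 0.499).

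The transcript of ATF4, which is controlled mainly at translation, was at 157 ± 17.5 CPM with 8:2 FTS and 153 ± 14.5 CPM in Control, a log2 difference of 0.04 (interval -0.13 to 0.21). In the serine branch, PHGDH had 136, 136 and 157 CPM with 8:2 FTS, against 99.0, 116 and 121 CPM in Control (edgeR adjusted p = 0.144). PSAT1, the next enzyme, had 122, 104 and 125 CPM against 81.4, 89.4 and 110 CPM in the same order (edgeR adjusted p = 0.19). The secreted glycoprotein gene STC2 had 20.1, 19.6 and 21.7 CPM with 8:2 FTS, against 8.44, 14.3 and 17.2 CPM in Control (edgeR adjusted p = 0.19). In STC2 and PSAT1 the highest control library was replicate 3. Without control replicate 3, the list had 5 genes called higher, SLC7A11 and SLC7A5 with PSAT1 (adjusted p = 0.0175), MTHFD2 (0.019) and STC2 (0.0207), and a median of 0.27. Over all genes tested in that fit 0.078% were called higher. The tRNA synthetases, also ATF4 targets in part, had 15 of 23 positive estimates and no call, against 12840 positive of all 24879 tested genes. CARS1 came nearest, at 86.9 ± 5.89 CPM with 8:2 FTS and 67.7 ± 2.24 CPM in Control (edgeR adjusted p = 0.0618). Without control replicate 3, IARS1 of that list was called at 0.35 (edgeR adjusted p = 0.0313, against 0.186 with all libraries).

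**Figure D3:**
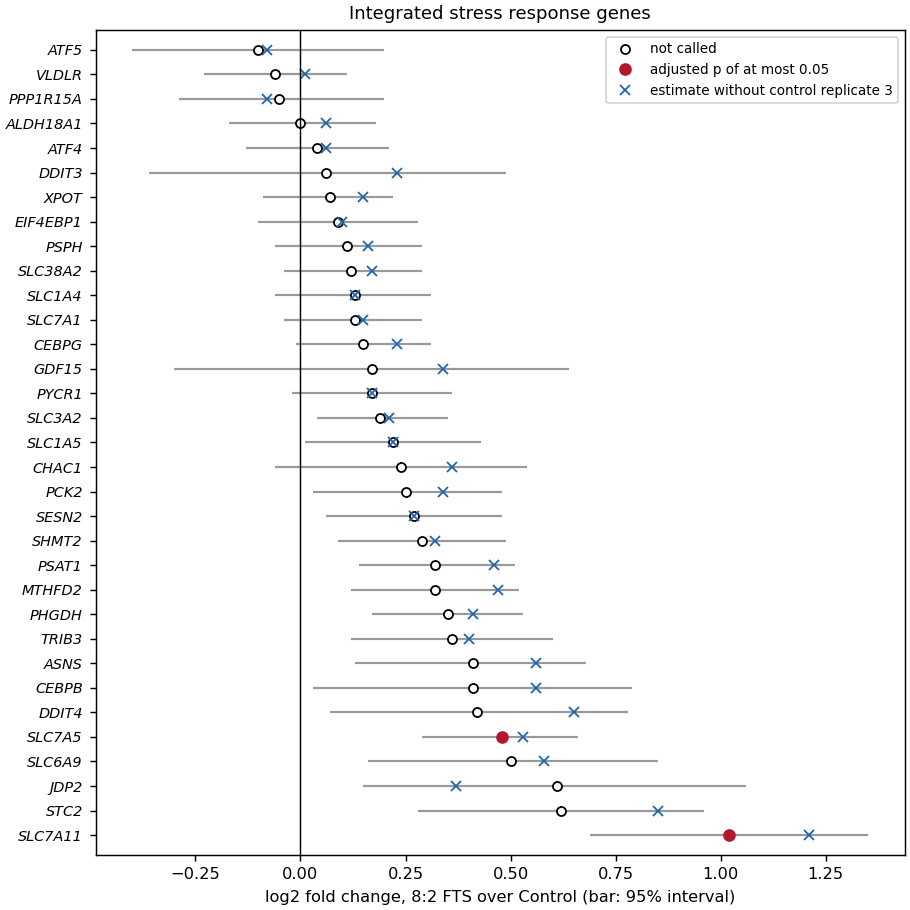
Log2 fold change of the 33 tested integrated stress response genes, 8:2 FTS over Control, with 95% intervals; filled points passed an adjusted p of 0.05 and crosses give the estimate without control replicate 3. SLC7A11 at 1.02 and SLC7A5 at 0.48 are the called genes, and most crosses lie to the right of their points.

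SLC7A11 also belongs to the NRF2 and glutathione lists, and no other gene of these passed. Without control replicate 3, PGD of the NRF2 list, an enzyme of the pentose phosphate pathway, was also called, at -0.39 (edgeR adjusted p = 0.019, against 0.11 with all libraries). The 35 NRF2 genes had a median of -0.04 with 20 negative estimates, where 48.39% of all tested genes were negative. TXN, which encodes thioredoxin, was at 73.6 ± 5.17 CPM with 8:2 FTS and 93.1 ± 10.5 CPM in Control (edgeR adjusted p = 0.152). GPX4, the peroxidase that guards membrane lipids, was at 80.1 ± 4.34 CPM and 96.7 ± 9.14 CPM in the same order (edgeR adjusted p = 0.388).

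Hypoxia and glycolysis genes had 27 of 34 positive estimates, against 12840 of 24879 over all tested genes, with a median of 0.10 and no call. VEGFA, the vascular growth factor, came nearest, with 131, 141 and 130 CPM with 8:2 FTS, against 93.4, 109 and 111 CPM in Control (edgeR adjusted p = 0.0544). Without control replicate 3 the list had 4 calls and a median of 0.15. Over all genes tested in that fit 0.078% were called higher and 0.0819% lower. BNIP3, a mitophagy receptor, had 121, 119 and 110 CPM with 8:2 FTS, against 70.2, 87.0 and 118 CPM in Control. Its adjusted p was 0.457 with all libraries and 0.003 without control replicate 3. PDK1, which restrains pyruvate oxidation, had 123, 122 and 124 CPM with 8:2 FTS, against 67.7, 99.3 and 123 CPM in Control, with adjusted p of 0.502 and 0.0122 in the same order. HK2 and TXNIP had the same pattern, with control replicate 3 at 106 and 141 CPM, the highest of the 3 control libraries in each. These calls thus rest on which control libraries are used.

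Neuronal genes had small negative estimates. Of 33 neuronal cytoskeleton and growth cone genes, 31 were negative, against 48.39% of all tested genes. None passed, and the median was -0.12. GAP43, a growth cone protein, had 238, 217 and 238 CPM with 8:2 FTS, against 304, 302 and 293 CPM in Control (edgeR adjusted p = 0.0732). MAP1B, which binds microtubules in growing axons, had 4560, 4050 and 4670 CPM with 8:2 FTS, against 5520, 5330 and 5350 CPM in Control (edgeR adjusted p = 0.328). The groups were separate in both genes. The synaptic vesicle list had no call and a median of -0.06, and MAOB, which breaks down monoamines, had 26.1, 20.1 and 28.1 CPM with 8:2 FTS, against 39.2, 35.7 and 35.2 CPM in Control (edgeR adjusted p = 0.0587). The axon guidance gene NTNG2 had a positive estimate of 0.44, at 47 ± 9.88 CPM with 8:2 FTS and 34.5 ± 3.53 CPM in Control (edgeR adjusted p = 0.0809).

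Several housekeeping lists also had negative medians without a call, where 48.39% of all tested genes had a negative estimate. Cytosolic heat shock genes were negative in 25 of 28 with a median of -0.17, and HSP90AA1, the inducible form of HSP90, had 1280, 1170 and 1350 CPM with 8:2 FTS, against 1510, 1790 and 1590 CPM in Control (edgeR adjusted p = 0.0618). The 13 proteins encoded by mitochondrial DNA were all negative with a median of -0.22, or -0.16 without control replicate 3, with adjusted p from 0.686 upwards. Cell cycle genes were negative in 33 of 34 with a median of -0.12, and MKI67 was at 741 ± 63.8 CPM with 8:2 FTS and 856 ± 32.2 CPM in Control (edgeR adjusted p = 0.487). Under scaling by library size only, which moved the median of all genes to 0.06, those medians were -0.12, -0.16 and -0.06.

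**Figure D4:**
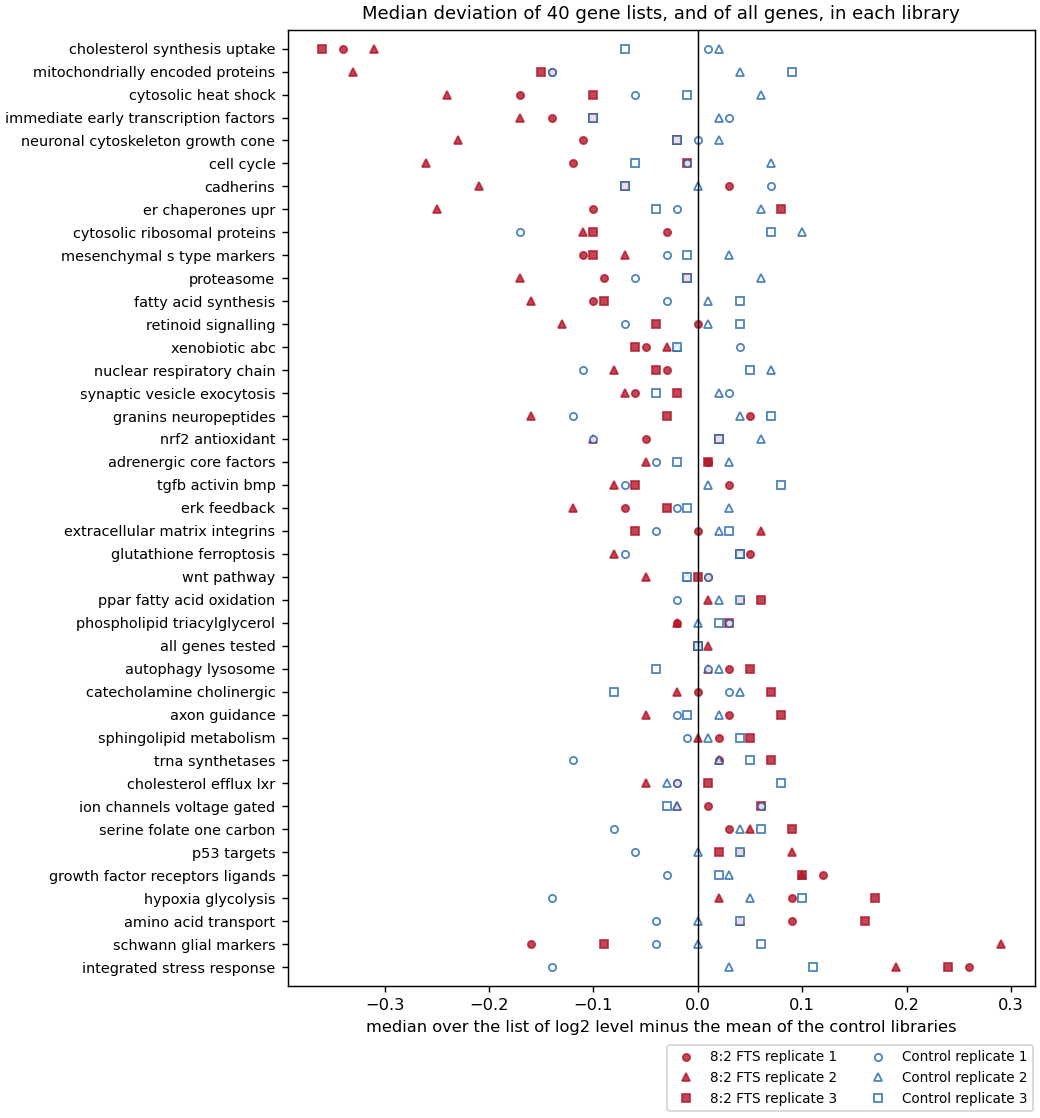
Median, over the tested genes of each of 40 lists and over all genes, of the log2 level in a library minus the mean of the 3 Control libraries; filled points are 8:2 FTS and open points Control. Cholesterol synthesis and uptake is lowest, at -0.31 to -0.36 in the 8:2 FTS libraries, and the integrated stress response lies at 0.19 to 0.26 in the 8:2 FTS libraries and -0.14 to 0.11 in Control.

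The other called genes belong to no common list. DKK2, a secreted modulator of Wnt signals, had 51.2, 46.4 and 51.7 CPM with 8:2 FTS, against 68.1, 69.5 and 65.9 CPM in Control, and fell by 0.45 (SE 0.09, edgeR adjusted p = 0.016), while the other 23 Wnt genes tested gave no call. TBX3, a T-box transcription factor, had 166, 145 and 154 CPM with 8:2 FTS, against 233, 202 and 176 CPM in Control (fell by 0.40, edgeR adjusted p = 0.0444), with an antisense gene over 3.3% of its exons. GALR2, a receptor for the neuropeptide galanin, had 1, 2 and 0 reads with 8:2 FTS, against 30, 19 and 24 reads in Control. Scaled for library size this is a ratio of 0.0609 (exact 95% interval 0.0123 to 0.185, for counting error only; edgeR adjusted p = 0.0446). NIM1K, a kinase related to AMPK, was at 0.482 ± 0.161 CPM with 8:2 FTS and 2.21 ± 0.0675 CPM in Control and fell by 2.14 (SE 0.44, edgeR adjusted p = 0.0227). PFDN4, a subunit of the prefoldin chaperone, had 28.4, 27.4 and 27.2 CPM with 8:2 FTS, against 33.5, 49.6 and 43.5 CPM in Control (fell by 0.61, edgeR adjusted p = 0.0446). GALR2 and PFDN4 lost their call without control replicate 3, at adjusted p of 0.0618 and 0.0983.

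Of the RNA genes, U3, a snoRNA gene of ribosomal RNA processing, was at 13.7 ± 3.06 CPM with 8:2 FTS and 24.2 ± 2.83 CPM in Control and fell by 0.81 (edgeR adjusted p = 0.00394). RNVU1-25, a variant U1 snRNA gene, was at 6.78 ± 0.671 CPM and 13.3 ± 1.85 CPM in the same order and fell by 0.96 (edgeR adjusted p = 0.0251). Both belong to families of near-identical copies, so their counts are uncertain. Of the genes without a symbol, ENSG00000290960 rose by 1.83 (2.26 ± 0.450 CPM with 8:2 FTS, 0.634 ± 0.154 CPM in Control, edgeR adjusted p = 0.0171). ENSG00000260368 fell by 1.45 and ENSG00000279602 by 0.52 (edgeR adjusted p = 0.0192 and 0.0446), and both lost their call without control replicate 3.

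The called genes were then placed among the 7 groups. Control had the highest mean of the 7 in all 18 fallen genes and the lowest in all 3 raised genes. The genes were chosen through these controls and the 8:2 FTS libraries, so the place of either group describes the data and tests nothing. 8:2 FTS had the lowest mean in 14 of the 18 and the highest in 2 of the 3, SLC7A5 and ENSG00000290960. In EGR1 the means were 14.6 CPM with 8:2 FTS, 23.3 with 8:2 FTOH, 17.5 with PFDS, 12.6 with PFOS, 15.6 with PFDA, 15.4 with PFOA and 35.8 in Control. The libraries of 8:2 FTS (14.2 to 15.3 CPM) overlapped those of PFOS (10.2 to 16.6), PFDA (13.9 to 17.3) and PFOA (13.4 to 16.5). In SLC7A11 the mean was 17.5 CPM with 8:2 FTOH, and the 8:2 FTS libraries (11.6 to 13.8 CPM) overlapped those of PFOS (10.9 to 13.3). In SC5D, DKK2 and PFDN4 all 3 libraries of 8:2 FTS lay below all 18 others.

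**Figure D5:**
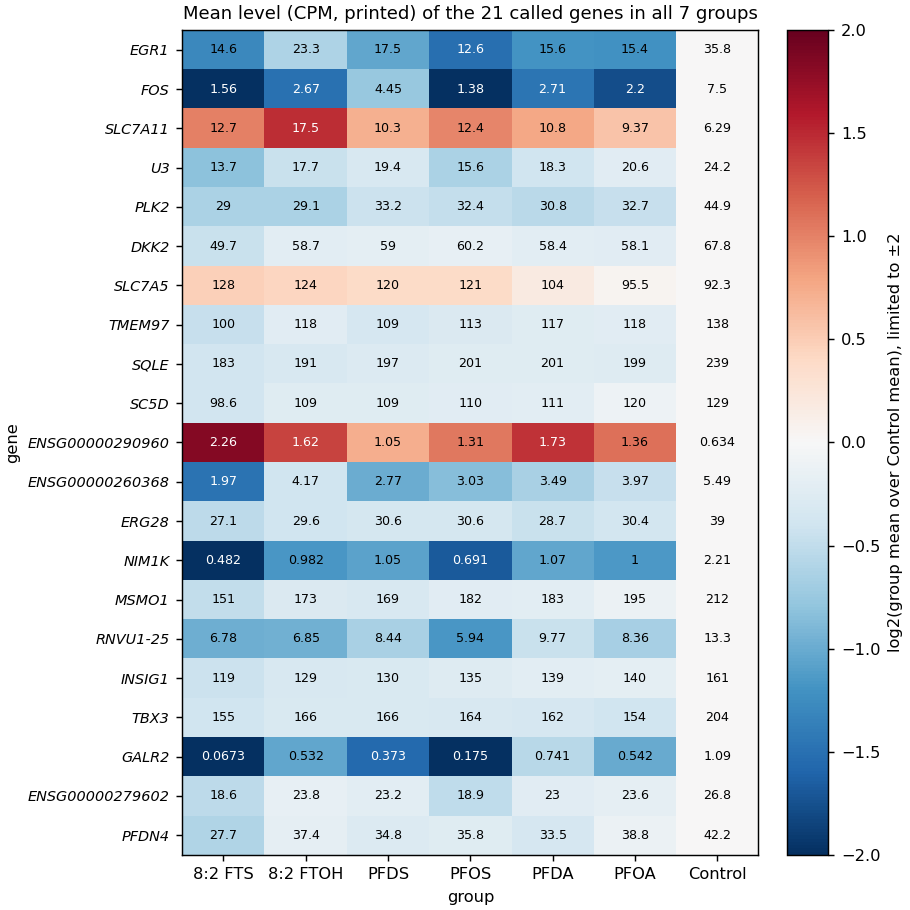
Mean level in CPM, printed, of the 21 called genes in all 7 groups, coloured by log2 of the group mean over the Control mean and limited to 2 either way. In the sterol genes SQLE, SC5D, MSMO1, INSIG1, ERG28 and TMEM97 the 8:2 FTS column holds the lowest mean, with SQLE at 183 CPM against 239 CPM in Control.

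8:2 FTS was set against 3 related compounds at the same dose and time. 8:2 FTOH has the same fluorinated chain and the same unfluorinated spacer but ends in an alcohol in place of the sulfonic acid. PFOS has the same fluorinated chain and the sulfonic acid without the spacer. PFDS is a sulfonic acid whose chain is fluorinated throughout and as long as the whole chain of 8:2 FTS. With p-values adjusted over all genes of the 3 pairs together, 0 genes passed between 8:2 FTS and 8:2 FTOH (0%), PFDS (0%) or PFOS (0%) in edgeR, and DESeq2 also called 0 in each. At an unadjusted p under 0.05 there were 811, 1020 and 712 genes in the same order. Against the mean of the 5 other compounds 0 genes passed (0%) with either tool, and 870 had an unadjusted p under 0.05. The distance from an estimate to either end of its 95% interval had a median of 0.306, 0.302 and 0.299 on the log2 scale for the 3 pairs among genes with a mean of 1 CPM or more over the libraries, so a p that misses the threshold does not show that the compounds act alike.

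Differences between compounds in the called genes are given with their intervals. They share the 8:2 FTS libraries through which the genes were chosen. FOS differed most from PFDS, at 1.56 ± 0.315 CPM with 8:2 FTS and 4.45 ± 1.15 CPM with PFDS, a log2 difference of -1.52 (interval -2.14 to -0.91, edgeR adjusted p = 0.406), which passed without the filter on low counts (adjusted p = 0.015). From PFOS it differed by 0.20 (interval -0.49 to 0.88). EGR1 differed from 8:2 FTOH by -0.66 (interval -0.98 to -0.34, edgeR adjusted p = 1), which also passed without that filter (adjusted p = 0.015). SLC7A11 differed from 8:2 FTOH by -0.46 (interval -0.78 to -0.14), from PFDS by 0.31 (interval -0.01 to 0.64) and from PFOS by 0.05 (interval -0.27 to 0.38). SQLE differed from 8:2 FTOH by -0.06 (interval -0.21 to 0.09), from PFDS by -0.11 (interval -0.26 to 0.05) and from PFOS by -0.14 (interval -0.29 to 0.01).

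The cholesterol list had a median difference of -0.09 between 8:2 FTS and 8:2 FTOH with 23 of 27 negative, -0.05 from PFDS with 20 negative, and -0.15 from PFOS with 24 negative. The integrated stress response list had medians of 0.02, 0.06 and 0.00 in the same order. For the 13 mitochondrially encoded genes the median was 0.27 against 8:2 FTOH with 0 negative and -0.17 against PFDS with 13 negative. 8:2 FTOH replicate 3 stood apart from its group, with a chi-square of 31.2 and 49.3 per gene against the other 8:2 FTOH libraries and 5.29 between those. Mitochondrial genes took 6.11% of its counts, against 3.52% and 3.53% in the other libraries of that compound, and its total of 7680024 counts was the lowest of the series. Without it, 0 genes passed between 8:2 FTS and 8:2 FTOH. The part of that replicate in the median of the 13 mitochondrially encoded genes was not tested.

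Fitted one pair at a time, with only the libraries of 8:2 FTS and the other compound, the pairs gave some calls, and the genes below were named after their values were seen. Against PFOS 18 genes were lower, 14 of them small or structural RNA genes such as RNU4-2 (log2 difference -0.74, edgeR adjusted p = 1.47e-06), with the retinoid-inducible reductase gene DHRS3 at -0.49 (0.0182). Short structural RNAs took 1.98% to 2.19% of counts with 8:2 FTS and 2.24% to 2.98% with PFOS, and their part in these calls was not tested. Against 8:2 FTOH, GPX3, a secreted glutathione peroxidase, differed by -0.76 (edgeR adjusted p = 0.0272) and MT-ND6 by 0.43 (0.00951). In the fit over all libraries GPX3 was at 13.7 ± 0.402 CPM with 8:2 FTS and 23 ± 3.93 CPM with 8:2 FTOH (edgeR adjusted p = 0.406).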

How the data were processed

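Differentiated SH-SY5Y cells were profiled by total RNA sequencing in 21 libraries, 3 in each of 7 groups. The authors deposited raw counts per gene made with featureCounts 2.0.1, per the file headers, and the submitters' processing notes also name FastQC, MultiQC, HISAT2, SAMtools, DESeq2 and hg38. A second deposited table of normalized values, with 19 libraries, was not used here. Reads were counted without regard to strand although the kit keeps it, so counts of genes that overlap on either strand are uncertain. The overlap is not given for every such gene named, for example MTHFD2 (11.6%).

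Counts were fitted in edgeR 4.0.16 (R 4.3.3) over all 21 libraries, with its filter on low counts by group, TMM scaling and the robust quasi-likelihood test. P-values were adjusted by Benjamini-Hochberg over all genes of a comparison, and over the 3 compound pairs together, at 0.05. Standard errors were derived from the F statistic. The fit was also run on simulated counts, with the same spread for every gene and no outlying library, unlike these data. Its outcome there is not reported here and lends no support to the calls. Levels are CPM of the TMM-scaled library, and n is 3 per group. Alternatives used DESeq2 1.42.0 and other settings. With a common coefficient of variation of 0.1124, 83.46% of genes at 1 CPM or more had an interval no wider than 2-fold either way.

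The groups, gene lists, motifs and genes were chosen with earlier results of these data known. Named genes were every called gene, up to 4 of smallest adjusted p in each list, genes called between compounds and genes called without control replicate 3 and 8:2 FTOH replicate 3. ATF4, FOSB, FDFT1, HMGCS1, IDI1, NSDHL, SCAP and SREBF2 fall outside that rule and were chosen after their values were seen, for their place in a pathway. Replicate numbers did not pair the 8:2 FTS and Control libraries (r of -0.114, -0.0685 and -0.0559 between same-numbered libraries across genes). Some genes of the lists are counted in them and not reported here by name.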

Additional observations from a re-analysis of the deposited data

Results flagged for a closer look

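In 2 genes all 3 libraries of 8:2 FTS and all 3 of another compound lay on opposite sides of every control library, and the difference between the compounds was not tested. ACER2, an alkaline ceramidase gene, averaged 6.92 CPM with 8:2 FTS and 4.57 CPM with PFOA, against 5.63 CPM in Control, with an edgeR adjusted p of 0.744 for 8:2 FTS against Control. ATG9A, an autophagy gene, averaged 15.4 CPM with 8:2 FTS and 11.8 CPM with PFDA, against 12.7 CPM in Control, with an edgeR adjusted p of 0.628. A gene on the same strand overlaps 38.8% of the exons of ATG9A, so its count is uncertain.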

How the results depend on the processing

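The 21 genes called against Control became 126 without a filter on low counts (31 higher, 95 lower), 41 with DESeq2 (11 and 30), 50 with only the groups compared (6 and 44), 38 at an adjusted p of 0.1 (7 and 31) and 11 with a fold of at least 1.5 (2 and 9). Leaving out 1 library of the 6 gave 4 to 41, and leaving out control replicate 3 and 8:2 FTOH replicate 3 gave 61 (30 and 31). Leaving out 1 library of another compound, an alternative chosen after seeing the data, gave 15 to 55, with 41 without PFDS replicate 1 and 55 without PFDS replicate 3. Scaling by library size only gave 28 calls, 13 higher and 15 lower, against 3 and 18, and moved 22 of 40 list medians beyond the spread between libraries. With the replicate number as a block 21 genes were called, 19 of them among the 21. Pairs of compounds, at 0 calls, gave 2 for 8:2 FTOH (EGR1 and GPX3), 1 for PFDS (FOS) and 2 for PFOS without the filter, and 2 for 8:2 FTOH and 18 for PFOS with only the groups compared. None of the 21 genes changed direction in the 15 settings, and EGR1 and FOS kept their call in each. RNU5D-1, a U5 snRNA gene, had a log2 change of -0.03 with all libraries and 1.31 (edgeR adjusted p = 0.00978) without control replicate 3 and 8:2 FTOH replicate 3. The causes were not tested. Depth limits genes such as GALR2, with 3 reads in all with 8:2 FTS.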
